A study of Mus musculus with 12 samples.

Results

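Cs, Idh3a, Idh3b, Ogdh, Suclg1, Sdha, Sdhb, Fh1 and Mdh2 encode enzymes of the citric acid cycle of the mitochondrion. They were chosen by symbol and are 9 of the 54532 genes counted in each library. All 9 passed the filter on low counts, as did 17658 genes in all. Male C57BL/6 mice gave the colon tissue for 12 RNA libraries, 3 for each of 4 groups, sequenced to compare ursolic acid (UA, a plant triterpenoid) given before or after the start of colitis. The colitis was induced with dextran sulfate sodium (DSS), a chemical that injures the colon epithelium. The mice arrived at 6 weeks of age and adapted for 1 week. The Con group is labelled untreated and, by the methods of the study, received vehicle by gavage, as did the DSS group. The DSS, UA+DSS and DSS+UA groups drank 3% (w/v) DSS for 5 days. UA was gavaged at 200 mg/kg of body weight, in the UA+DSS group from 1 day before DSS (early UA) and in the DSS+UA group from 3 days after DSS began (late UA). No group received UA without DSS, so the effect of UA on an uninjured colon was not measured. The replicates are 3 colon tissues per group, each sequenced in bulk.

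The citric acid cycle joins acetyl-CoA to oxaloacetate and, through citrate, 2-oxoglutarate, succinate, fumarate and malate, returns to oxaloacetate. Its dehydrogenases pass electrons to the respiratory chain, and succinate dehydrogenase is at once a cycle enzyme and a complex of that chain. Absorptive colonocytes are known for burning butyrate, a short-chain fatty acid made by gut bacteria, through this cycle.

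Total counts were 15566216 to 19498383 per library, and values are given as CPM, counts set relative to the size of the library and scaled by TMM, a factor that is robust to a few strongly changed genes. The summed level of 8 epithelial markers (Epcam, Cdh1, Krt8, Krt18, Krt19, Krt20, Vil1 and Cdh17) was 9960 to 14881 CPM in Con, 6386 to 9673 in DSS, 11466 to 13732 in UA+DSS and 12222 to 17852 in DSS+UA libraries, so epithelial markers were present throughout. Markers of other tissue set 2 libraries apart. The 7 leukocyte markers (Ptprc, Lyz2, Cd68, Itgam, S100a8, S100a9 and Csf3r) summed to 122 to 295 CPM in Con and 1499 to 16518 in DSS libraries, the highest being DSS 2 (replicate 2 of the DSS group), against 268 to 479 in UA+DSS and 895 to 969 in DSS+UA. The 4 pancreas markers (Cela1, Ctrb1, Pnlip and Cpa1) summed to 9979 CPM in DSS 3 and to at most 554 CPM in every other library. A score of position along the colon, rectal minus caecal Hox genes in mean log2 CPM, was -5.70 to -4.16 in UA+DSS, 4.11 to 5.06 in DSS+UA, -3.03 to 5.53 in Con and 0.37 to 3.10 in DSS. In bulk tissue, fewer cells of a type and less RNA per cell cannot be told apart.

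Upstream sequences are shown for 3 of the genes. Suclg1 and Sdhb had the most similar levels of any pair, and Mdh2 was the gene least like the rest. Each stretch ends at the annotated start of the gene, or at the RefSeq start where that lies further upstream, and is written 5′ to 3′ on the strand of the gene, which is the plus strand in each case. Sequences are from RefSeq on GRCm38.p6, and capitals mark the 8 letters GGGGCGGG or their reverse complement, a GC box of the kind Sp1-family factors bind.
Suclg1, chr6:73248255-73248381: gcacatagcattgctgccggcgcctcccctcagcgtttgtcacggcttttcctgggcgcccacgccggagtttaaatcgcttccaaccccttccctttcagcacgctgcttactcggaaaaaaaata
Sdhb, chr4:140961021-140961202: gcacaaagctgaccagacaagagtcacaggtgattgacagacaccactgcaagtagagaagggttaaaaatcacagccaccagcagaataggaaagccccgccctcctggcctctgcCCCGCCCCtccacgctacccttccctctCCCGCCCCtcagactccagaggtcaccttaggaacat
Mdh2, chr5:135778399-135778479: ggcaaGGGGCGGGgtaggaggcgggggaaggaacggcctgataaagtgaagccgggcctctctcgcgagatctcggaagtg

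The RefSeq table held a promoter (250 bases before to 50 after the start) for 8 of the 9 genes, all except Idh3a. Read on both strands, GGGGCGGG was present in 5 of the 8 (Cs, Ogdh, Sdhb, Fh1 and Mdh2), or 62.5%, against 16.8% of 27025 promoters, and it was absent from that window of Suclg1. CCAAT was present in 6 of the 8 (Cs, Idh3b, Ogdh, Sdha, Sdhb and Fh1), or 75%, against 37.9% of all promoters. GCGCATGC, the letters of nuclear respiratory factor 1 (NRF1), was present in Sdhb alone, 54 bases before its RefSeq start, and in 2.8% of all promoters. CCGGAAGT (GABPA), TNAAGGTCA (estrogen-related receptors) and AAGATGGC (YY1) were in none of the 8 and in 4.01%, 1.25% and 2.88% of all promoters. None of the matches in these genes overlapped another. Suclg1 and Sdhb, whose RNA levels ran closest, therefore shared none of the letters searched.

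Across the comparisons, DSS colons had lower levels of Suclg1 and Sdhb than Con colons, and both UA groups had higher levels of the same 2 genes than DSS colons. In DSS against Con, edgeR called 2 of the 9 genes (22.2%), both lowered, where 26.5% of all tested genes were called, so the share called was near that background. In UA+DSS against DSS it called 3 of 9 (33.3%), all raised (Idh3b, Suclg1 and Sdhb), against 18.7% of all genes. In DSS+UA against DSS it called 4 of 9 (44.4%), all raised (Suclg1, Sdhb, Fh1 and Mdh2), against 7.54% of all genes. With scaling by library size alone it called 0 of the 9 in that comparison, where the calls over all genes went from 448 raised and 883 lowered to 140 raised and 1003 lowered. It also called 0 of the 9 with the replicate block and with only the 2 groups compared, where 552 and 404 of all genes were called. These 3 comparisons share the DSS libraries, so a low DSS value enters all of them.

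The genes that did not pass lay mostly in the same direction. The median log2 fold change of the 9 genes was -0.33 in DSS against Con, 0.57 in UA+DSS against DSS and 0.58 in DSS+UA against DSS, where the medians over all tested genes were -0.03, -0.02 and 0.02. Among the 2244 tested genes with a mean of at least 100 CPM, as all 9 have, the medians were -0.12, 0.12 and 0.26, and 25.5%, 21.9% and 8.65% were called. Scaling by library size alone moved the median of all genes to -0.12 in UA+DSS against DSS and to -0.11 in DSS+UA against DSS.

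Few of the genes were called between the UA groups and Con, and the shares called were no higher than those of all genes. In UA+DSS against Con, edgeR called 0 of the 9 genes and 0.00566% of all genes (1 of 17658). At an unadjusted p under 0.05 it also counted 0 of the 9, and 2132 of all 17658 genes. DESeq2 and limma-voom called 0 of the 9, and 374 and 0 of all genes. Log2 fold changes ran from -0.31 (Idh3a) to 0.49 (Sdha). In DSS+UA against Con, 1 of 9 was called (Mdh2, raised) against 18.1% of all genes, and in UA+DSS against DSS+UA, 1 of 9 (Mdh2, lower in UA+DSS) against 16.8%. In these 3 comparisons the libraries did not overlap for 2, 2 and 4 of the 9 genes (22.2%, 22.2% and 44.4%). Over all tested genes the shares were 20.6%, 38.9% and 45.3%.

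**Figure D1:**
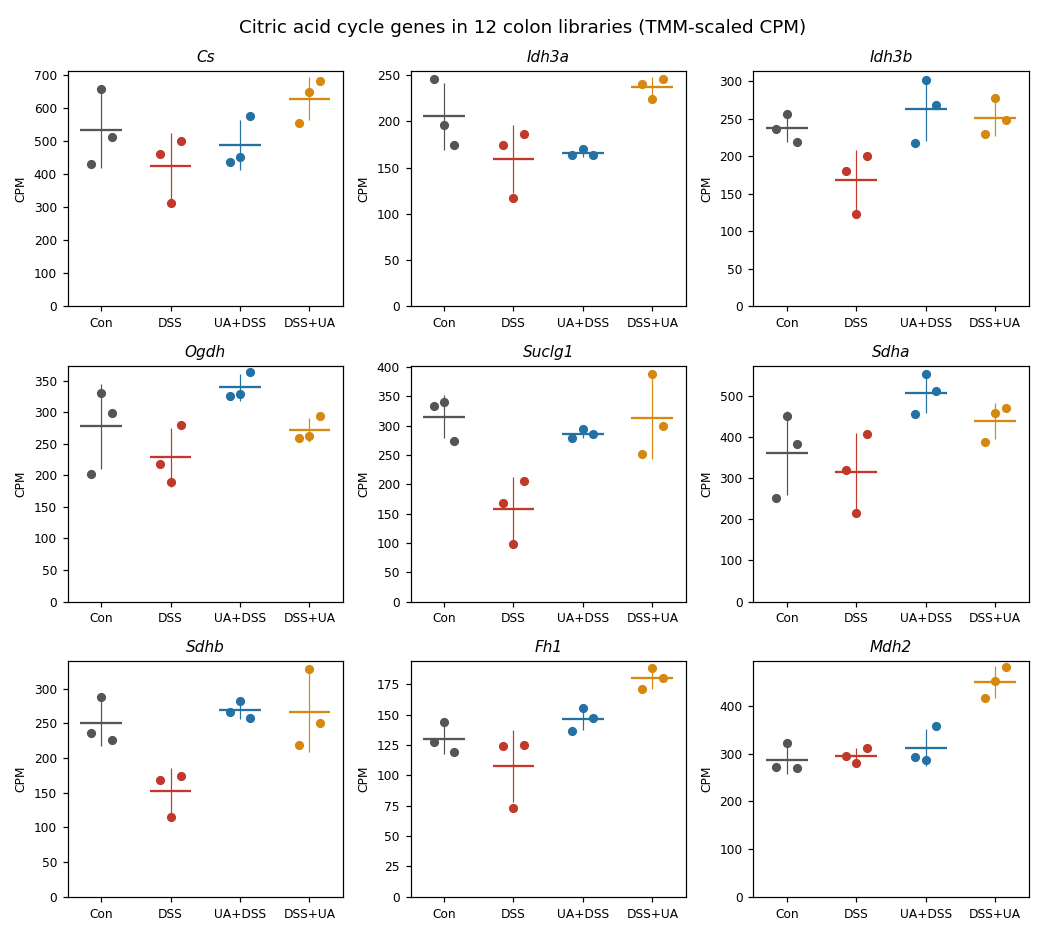
Level of each of the 9 genes in TMM-scaled CPM (vertical axis, from 0) in the 3 libraries of each group, in replicate order; horizontal bars are group means and vertical bars SDs (n = 3). Idh3b, Suclg1 and Sdhb are below all other libraries in the 3 DSS libraries, and Fh1 and Mdh2 are above all others in the 3 DSS+UA libraries.

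**Figure D2:**
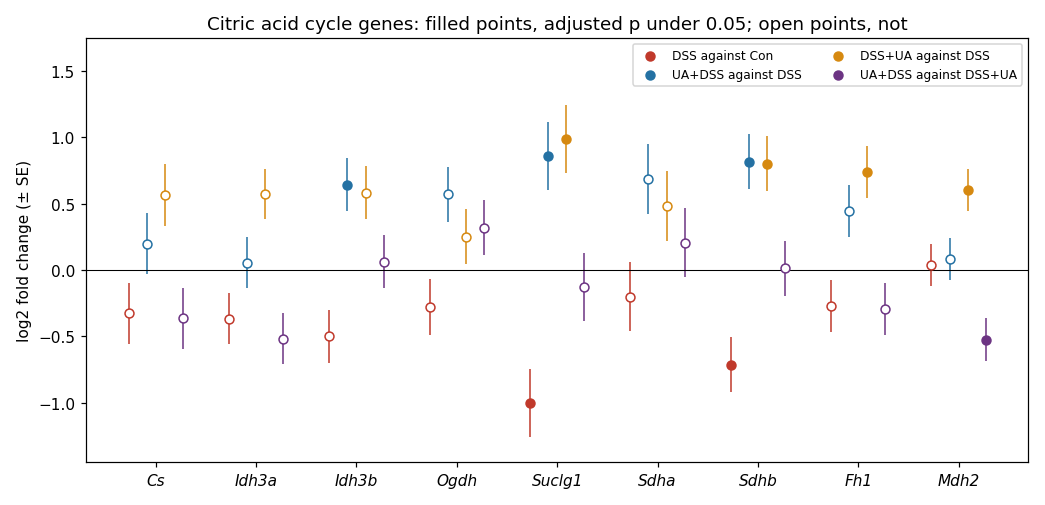
Log2 fold change of each gene with its standard error from edgeR, in 4 comparisons (colours); filled points have an adjusted p under 0.05. The filled points are Suclg1 and Sdhb below 0 in DSS against Con, 7 points above 0 in the comparisons of UA groups with DSS, and Mdh2 below 0 in UA+DSS against DSS+UA.

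Cs (ENSMUSG00000005683, GRCm38 10:128337734-128362479) encodes citrate synthase, which makes the citrate that opens the cycle. Its levels were 430.2, 658 and 513 CPM in Con, 462, 314 and 501 in DSS, 437, 453 and 576 in UA+DSS, and 556, 648 and 683 in DSS+UA. Every DSS+UA library was above every DSS library, while Con overlapped all the other groups. The log2 fold change of DSS+UA against DSS was 0.56 (SE 0.23) with an edgeR adjusted p of 0.132, and that of UA+DSS against DSS was 0.20 (95% interval -0.31 to 0.71, adjusted p 0.585). A stretch of 2.01% of its 50-base windows is shared with Csl, a related gene, so a small part of its reads could be split.

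Idh3a (ENSMUSG00000032279, 9:54586334-54604661) and Idh3b (ENSMUSG00000027406, 2:130279309-130284547) encode the catalytic and a further subunit of the NAD-dependent isocitrate dehydrogenase, which makes 2-oxoglutarate. Idh3a stood at 245, 196 and 175 CPM in Con, 174, 117 and 187 in DSS, 163, 169.9 and 163.5 in UA+DSS, and 240.5, 225 and 246 in DSS+UA. The 3 UA+DSS values, with a coefficient of variation of 2.3%, lay inside the range of DSS and below every Con library. Against DSS, the log2 fold change was 0.06 (95% interval -0.36 to 0.47) with early UA and 0.57 (0.15 to 0.99, edgeR adjusted p 0.0792) with late UA. DESeq2 called the latter (adjusted p 0.0349).

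For Idh3b the levels were 237, 257 and 219.6 CPM in Con, 181, 123 and 200.4 in DSS, 218, 302 and 269 in UA+DSS, and 229.7, 278 and 248 in DSS+UA. Every DSS library was below every library of the other groups. UA+DSS exceeded DSS by 0.64 on the log2 scale (SE 0.20, 1.56-fold, edgeR adjusted p 0.0457). The call was lost without DSS 1, DSS 2, UA+DSS 2 or UA+DSS 3, with adjusted p of 0.0892 to 0.165. DSS+UA exceeded DSS by a similar 0.58, which did not pass (adjusted p 0.0864, and 0.0412 by DESeq2). Exons of Idh3b overlap those of Nop56 on the other strand, and whether the counting used strand is not given in the sources used here.

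The ratio of these subunits was lower in UA+DSS than in DSS in every library, a difference that did not pass its test. The log2 ratio of Idh3a to Idh3b counts was -0.05, -0.08 and -0.10 in the DSS libraries and -0.42, -0.83 and -0.72 in the UA+DSS libraries. The groups did not overlap, and the difference in means was -0.58 (UA+DSS minus DSS, two-sided exact permutation p = 0.1, the smallest that 3 against 3 can give, and 0.3 after adjustment over 6 ratio comparisons). In DSS+UA the ratio was 0.07, -0.31 and -0.01, spanning the DSS values (difference -0.01). The design cannot bring either difference below 0.05.

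Ogdh (ENSMUSG00000020456, 11:6291633-6356642) encodes the E1 subunit of 2-oxoglutarate dehydrogenase, which makes succinyl-CoA. Its levels were 203, 331 and 299 CPM in Con, 217, 189 and 279.6 in DSS, 325, 329 and 364 in UA+DSS, and 259, 263 and 294 in DSS+UA. Only the UA+DSS libraries were all above the DSS libraries, and they were all above DSS+UA as well. UA+DSS against DSS gave a log2 fold change of 0.57 (SE 0.21, edgeR adjusted p 0.0773). It passed by DESeq2 (0.0423) and without DSS 3 (0.0374, log2 fold change 0.74). The difference from DSS+UA was 0.32 (95% interval -0.14 to 0.78, adjusted p 0.303).

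Suclg1 (ENSMUSG00000052738, 6:73248382-73276911) encodes the alpha subunit of succinyl-CoA ligase, the step that forms a nucleoside triphosphate directly. Its levels were 333, 340.2 and 274 CPM in Con, 169, 98.1 and 207 in DSS, 279, 294 and 286 in UA+DSS, and 252, 388 and 300.0 in DSS+UA. All 3 DSS libraries lay below all 9 others. DSS colons had 2.0-fold less than Con, the largest change of the 9 genes in that comparison (log2 fold change -1.0, SE 0.26, edgeR adjusted p 0.0169).

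Suclg1 rose 1.81-fold in UA+DSS against DSS (log2 0.86, SE 0.26, edgeR adjusted p 0.0397) and 1.98-fold in DSS+UA against DSS (0.99, SE 0.26, adjusted p 0.0444). Both UA groups overlapped Con, with log2 fold changes of -0.14 (95% interval -0.70 to 0.42) and -0.01 (-0.57 to 0.55). The call in DSS against Con was lost without Con 2 (adjusted p 0.0508). The call in UA+DSS against DSS was kept without DSS 3 alone (0.0774 to 0.116 without any other library), and that in DSS+UA against DSS was lost without DSS 1, DSS 2, DSS+UA 2 or DSS+UA 3 (0.0642 to 0.137). With each library left out in turn, the log2 fold change stayed between -1.25 and -0.76, between 0.61 and 1.10, and between 0.75 and 1.24.

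Sdha (ENSMUSG00000021577, 13:74322254-74350280) and Sdhb (ENSMUSG00000009863, 4:140961203-140979193) encode the flavoprotein and the iron-sulfur subunit of succinate dehydrogenase, which turns succinate into fumarate. Sdha stood at 251, 452 and 382 CPM in Con, 320.2, 216 and 407 in DSS, 455, 553 and 512 in UA+DSS, and 389, 458 and 472 in DSS+UA. The UA+DSS libraries were above every Con and every DSS library. Against DSS the log2 fold change was 0.69 (SE 0.26, edgeR adjusted p 0.0879), and it passed without DSS 3 (0.0389, log2 fold change 0.92).

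Sdhb was measured at 236, 288 and 226 CPM in Con, 168, 115 and 174 in DSS, 266, 282 and 257 in UA+DSS, and 218, 329 and 251 in DSS+UA. As with Suclg1, all 3 DSS libraries were below all 9 others. DSS colons had 1.64-fold less than Con (log2 fold change -0.71, SE 0.21, edgeR adjusted p 0.0274). UA+DSS was 1.76-fold above DSS (0.82, SE 0.21, adjusted p 0.0228) and DSS+UA 1.74-fold (0.80, SE 0.21, adjusted p 0.0431).

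Against Con the 2 UA groups gave log2 fold changes of Sdhb of 0.10 (95% interval -0.35 to 0.55) and 0.09 (-0.36 to 0.54), and against each other 0.01 (-0.44 to 0.46). The call in DSS against Con was lost without Con 2 (edgeR adjusted p 0.0912) or DSS 2 (0.0753, log2 fold change -0.56). In UA+DSS against DSS it was lost without DSS 2 or any 1 UA+DSS library (0.0523 to 0.0853), and in DSS+UA against DSS without DSS 1, DSS 2, DSS+UA 2 or DSS+UA 3 (0.0548 to 0.134).

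The ratio of Sdha to Sdhb was compared in the same way, and no difference passed. The log2 ratio of Sdha to Sdhb counts was 0.09, 0.65 and 0.76 in Con and 0.93, 0.91 and 1.22 in DSS. The ratio was higher in DSS by 0.52, with no overlap (exact permutation p = 0.1, the smallest possible, and 0.3 after adjustment over the 6 ratio comparisons). In UA+DSS it was 0.78, 0.97 and 0.99 and in DSS+UA 0.83, 0.48 and 0.91, both overlapping DSS.

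Fh1 (ENSMUSG00000026526, 1:175600374-175625635) encodes fumarate hydratase, which makes malate. Its levels were 127, 143 and 119 CPM in Con, 124.5, 73.2 and 125.1 in DSS, 137, 155 and 147 in UA+DSS, and 171, 188 and 180.1 in DSS+UA. The DSS+UA libraries were above all 9 others, and UA+DSS was above DSS without overlap. Fh1 rose 1.67-fold in DSS+UA against DSS (log2 0.74, SE 0.19, edgeR adjusted p 0.0451), a call lost without DSS 2 or any 1 DSS+UA library (0.0597 to 0.124). UA+DSS against DSS gave 0.45 (SE 0.19, adjusted p 0.129).

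Mdh2 (ENSMUSG00000019179, 5:135778480-135790398) encodes mitochondrial malate dehydrogenase, which returns malate to oxaloacetate. Its levels were 271, 323 and 269 CPM in Con, 296, 281 and 312 in DSS, 294, 288 and 358 in UA+DSS, and 416, 453 and 482 in DSS+UA. Con, DSS and UA+DSS overlapped, and the DSS+UA libraries lay above all 9 others. DSS against Con gave a log2 fold change of 0.04 (95% interval -0.31 to 0.39), the nearest to 0 of the 9 genes.

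With late UA, Mdh2 rose 1.52-fold over DSS (log2 0.60, SE 0.16, edgeR adjusted p 0.0451) and 1.56-fold over Con (0.65, SE 0.16, adjusted p 0.0208). With early UA it stood 0.08 above DSS (95% interval -0.27 to 0.43). The difference between the UA groups was itself called (UA+DSS minus DSS+UA -0.52, SE 0.16, adjusted p 0.0444). Leaving out any 1 of the 6 libraries ended the call in DSS+UA against DSS (0.0525 to 0.138), with log2 fold changes of 0.57 to 0.67. The call against Con was lost without Con 3 (0.0639) or DSS+UA 3 (0.0760), and that between the UA groups without any library but UA+DSS 3 (0.0593 to 0.151).

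The spread between replicates differed between groups. The median coefficient of variation of the 9 genes was 13.2% in Con, 23.3% in DSS, 6.37% in UA+DSS and 9.58% in DSS+UA. DSS 2 was the lowest of the 12 libraries for 8 of the 9 genes, all except Mdh2, whose lowest library was Con 3. Without DSS 2, edgeR called 1 of the 9 in DSS against Con (Suclg1), 0 in UA+DSS against DSS and 0 in DSS+UA against DSS. Over all genes the calls without it went from 4688, 3300 and 1331 to 3485, 1813 and 399. Without DSS 3, the library with pancreas markers, the counts were 2, 5 and 3 of the 9 and 4295, 3641 and 1506 of all genes.

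**Figure D3:**
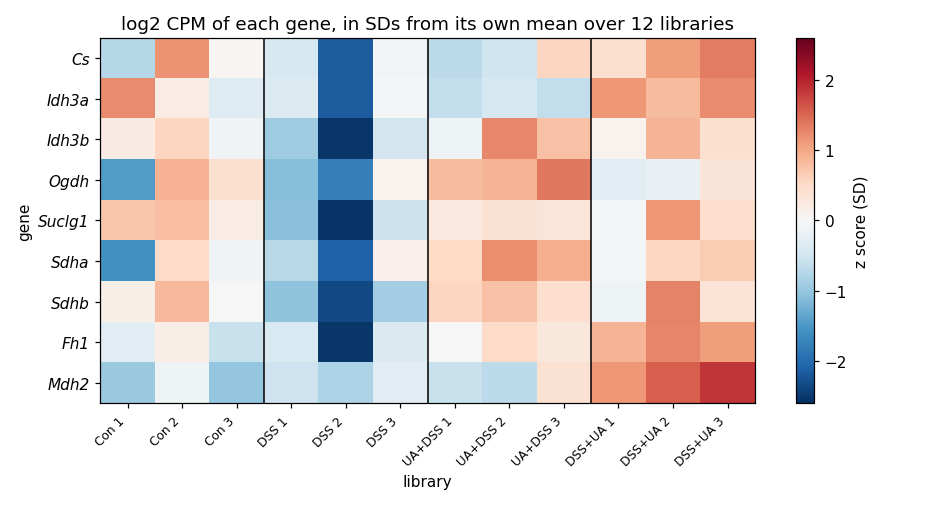
Each gene's log2 CPM in each library, in SDs from that gene's own mean over the 12 libraries (colour), with libraries grouped as Con, DSS, UA+DSS and DSS+UA. All 9 genes are below their means in DSS 1 and DSS 2, and all 9 are above in DSS+UA 3.

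Likeness between genes was measured as the root mean square difference of these SD-scaled profiles over the 12 libraries, where 0 is identical. Over the 36 pairs it was smallest for Suclg1 and Sdhb (0.26 SD), then Idh3b and Sdhb (0.33) and Idh3b and Suclg1 (0.36). It was largest for Idh3a and Ogdh (1.31). Against the mean of the other 8 genes, Fh1 was closest (0.33) and Mdh2 farthest (0.90), followed by Idh3a (0.84) and Ogdh (0.83). Of all other tested genes outside the cycle lists, the 5 nearest to the mean profile of the 9 were Mgat4b (0.20), Cds1 (0.20), Slc52a3 (0.23), Uqcrfs1 (0.24) and Cant1 (0.25). Uqcrfs1 encodes the Rieske iron-sulfur subunit of respiratory complex III.

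Levels of different genes can be compared only per length. In CPM per kilobase of the longest principal transcript, the order in Con was Sdhb (219 ± 29, SD, n = 3), Suclg1 (208 ± 24), Mdh2 (198 ± 20.9), Cs (182 ± 39.4), Idh3b (147 ± 11.5), Sdha (125 ± 35.1), Idh3a (85.5 ± 15), Ogdh (67.2 ± 16.2) and Fh1 (49.3 ± 4.74). Each neighbour in this order overlapped the next over the 3 libraries. In DSS, Mdh2 led (203 ± 11) with no overlap with the next gene, Cs (145 ± 33.8), while Suclg1 was at 104 ± 36.3. Mdh2 also led in DSS+UA (309 ± 22.6), where Sdhb was next (233 ± 49.7) and overlapped it. With the union of all exons as the length, Suclg1 was sixth and not second in Con.

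The median log2 fold changes of the 8 epithelial markers were -0.56 in DSS against Con, 0.70 in UA+DSS against DSS and 0.68 in DSS+UA against DSS. Of the 8, 1 fell in DSS against Con and 2 rose in each UA group against DSS, where 26.5%, 18.7% and 7.54% of all genes were called. The mean SD-scaled level of the 9 genes was -2.11 in DSS 2, -0.73 in DSS 1 and -0.27 in DSS 3, in the order of the epithelial score of those libraries. Of the 7 leukocyte markers all 7 rose in DSS against Con, 7 fell in UA+DSS against DSS and 1 fell in DSS+UA against DSS. Of the 5 fibroblast markers, which summed to 1023 to 1750 CPM in Con, 3118 to 6800 in DSS, 596 to 1601 in UA+DSS and 930 to 2266 in DSS+UA, the counts were 5 raised, 4 lowered and 2 lowered, and of the 4 pancreas markers 3 raised, 3 lowered and 2 lowered. The 5 absorptive colonocyte markers (Slc26a3, Car1, Car4, Aqp8 and Guca2a) summed to 2486 to 8645 CPM in Con, 324 to 3480 in DSS, 7255 to 11727 in UA+DSS and 1410 to 2553 in DSS+UA. Of these 0 passed in DSS against Con, 1 rose with early UA and 0 passed with late UA. None of the 6 smooth muscle markers passed in these 3 comparisons, and 3 of them were higher in UA+DSS than in DSS+UA (sums 1124 to 2436 and 436 to 866 CPM).

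**Figure D4:**
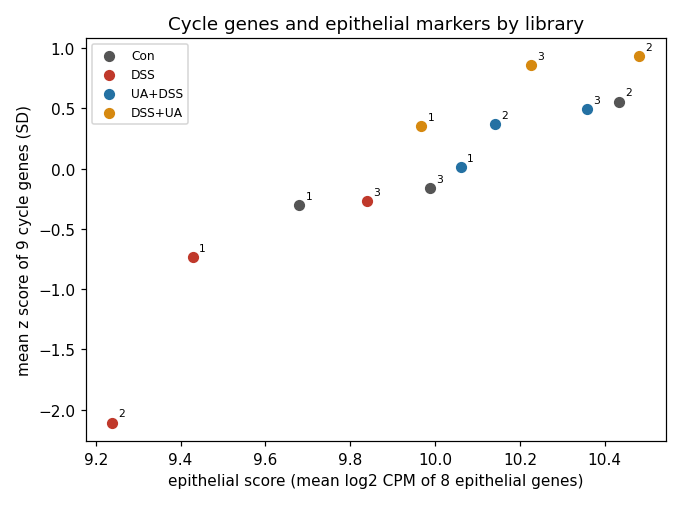
Mean SD-scaled level of the 9 genes (vertical axis) against the epithelial score, the mean log2 CPM of the 8 epithelial markers (horizontal axis), 1 point per library with its replicate number. The 3 DSS libraries, with scores of 9.24 to 9.84, have means of -2.11 to -0.27, and the 3 DSS+UA libraries have the means 0.35, 0.93 and 0.86.

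With the epithelial score as a covariate, edgeR called 0 of the 9 genes in each of the 3 comparisons, and the median log2 fold changes of the 9 became -0.04, 0.10 and 0.34. That fit called 2368, 2 and 4 of all genes in these comparisons, so the counts of 0 are not particular to the 9. The call of Mdh2 in DSS+UA against Con and in UA+DSS against DSS+UA was kept. The epithelial scores of DSS (9.24 to 9.84) overlap neither those of UA+DSS (10.06 to 10.36) nor those of DSS+UA (9.97 to 10.48). Between either UA group and DSS, treatment and the epithelial score therefore cannot be told apart. With the position score as a covariate, 2 of 9 were called in DSS against Con, 0 in UA+DSS against DSS and 0 in DSS+UA against DSS, with medians of -0.26, 0.32 and 0.70, and 5382, 3 and 199 of all genes were called. In that score the UA groups overlap neither each other nor DSS, and UA+DSS does not overlap Con. In the comparisons of those groups, which do not include DSS against Con, treatment and position along the colon cannot be told apart.

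A further 7 genes of the cycle, Idh3g, Dlst, Dld, Suclg2, Sucla2, Sdhc and Sdhd, encode partner subunits of the enzymes above. None of the 7 was called in DSS against Con or UA+DSS against DSS, and 2 were called in DSS+UA against DSS, where 26.5%, 18.7% and 7.54% of all genes were called. These were Sdhc and Sdhd, the membrane anchors of succinate dehydrogenase, which rose by 0.83 (SE 0.21, edgeR adjusted p 0.0401) and 0.73 (SE 0.18, adjusted p 0.0398) on the log2 scale. So 3 of the 4 succinate dehydrogenase genes passed with late UA, and Sdha (0.48, SE 0.26, adjusted p 0.240) did not. Neither Sdhc nor Sdhd was called with library size alone, the position score or the epithelial score. Those fits called 1143, 199 and 4 of all genes. Neither was called with only the 2 groups compared, or without DSS 2, DSS+UA 2 or DSS+UA 3, where 404, 399, 110 and 25 of all genes were called. With the replicate block at most 1 of them was called, where 552 of all genes were.

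Suclg2, the GTP-forming beta partner of Suclg1, had log2 fold changes of -0.84 (SE 0.33, edgeR adjusted p 0.0780) in DSS against Con and 0.99 (SE 0.33, adjusted p 0.0565) in UA+DSS against DSS, and 16.0% of its 50-base windows are shared with Gm15163. The ATP-forming partner Sucla2 gave -0.25 (SE 0.18) and 0.45 (SE 0.18, adjusted p 0.0997). Idh3g, the remaining isocitrate dehydrogenase subunit, stood at 0.61 (SE 0.17, adjusted p 0.0535) in DSS+UA against DSS. Dlst and Dld, the other subunits of 2-oxoglutarate dehydrogenase, had log2 fold changes of 0.07 and 0.39 in UA+DSS against DSS, neither of which passed.

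Around the cycle, a list of 44 genes (the 7 above, assembly factors, pyruvate entry and its control, isozymes outside the cycle, and routes out of and into it) was read in the same fit. In DSS against Con 7 were called (15.9%, 1 raised and 6 lowered), in UA+DSS against DSS 4 (9.09%, 3 raised and 1 lowered) and in DSS+UA against DSS 10 (22.7%, 9 raised and 1 lowered). The first 2 shares were under those of all tested genes and the last was above it. That last count was 1 of 44 with library size alone or the replicate block, and 0 with only the 2 groups compared. In these fits 1143, 552 and 404 of all genes were called. Without DSS 2, DSS+UA 2 or DSS+UA 3 the count was 0 as well, where 399, 110 and 25 of all genes were called.

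Pyruvate enters through the mitochondrial carrier and pyruvate dehydrogenase. Mpc1, a carrier subunit, fell in DSS against Con by 0.82 on the log2 scale (SE 0.17, edgeR adjusted p 0.00652). Its partner Mpc2 rose in DSS+UA against DSS (0.86, SE 0.23, adjusted p 0.0469), as did Pdhb, the E1 beta subunit of pyruvate dehydrogenase (0.63, SE 0.17, adjusted p 0.0468).

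Among the kinases and phosphatases that set pyruvate dehydrogenase activity, the kinase gene Pdk2 averaged 51.4 ± 6.22 CPM in Con, 18.6 ± 1.20 in DSS, 51.5 ± 16.2 in UA+DSS and 22.9 ± 6.84 in DSS+UA (SD, n = 3). It fell in DSS against Con (log2 -1.47, SE 0.26, edgeR adjusted p 0.00425) and rose with early UA (1.47, SE 0.26, adjusted p 0.00998). With late UA it gave 0.30, which did not pass. The phosphatase gene Pdp2 also fell in DSS (-0.95, SE 0.20, adjusted p 0.00796) but rose with late UA (0.82, SE 0.20, adjusted p 0.0390). Pdk1 was called with late UA too (0.74, SE 0.19, adjusted p 0.0431).

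Of the genes for routes out of the cycle, Pck1, the cytosolic phosphoenolpyruvate carboxykinase, had 159 ± 7.97 CPM in Con, 37.9 ± 17.2 in DSS, 156 ± 40.5 in UA+DSS and 29.6 ± 13.4 in DSS+UA. It was lowered in DSS (log2 -2.07, SE 0.40, edgeR adjusted p 0.00565) and raised with early UA (2.04, SE 0.40, adjusted p 0.0122). The mitochondrial form Pck2 was lowered in DSS as well (-0.82, SE 0.20, adjusted p 0.0151). Got1, the cytosolic aspartate aminotransferase, rose in DSS (0.75, SE 0.13, adjusted p 0.00407), and the mitochondrial Got2 fell with early UA (-0.43, SE 0.13, adjusted p 0.0456). Slc25a11, the 2-oxoglutarate carrier, rose with late UA (0.56, SE 0.15, adjusted p 0.0447).

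Among the isozymes, Mdh1, the cytosolic malate dehydrogenase, averaged 342 ± 72.2 CPM in Con, 241 ± 53.4 in DSS, 407 ± 10.6 in UA+DSS and 448 ± 97.9 in DSS+UA. Unlike Mdh2 it was called in both UA comparisons with DSS, at 0.76 (SE 0.23, edgeR adjusted p 0.0440) and 0.89 (SE 0.23, adjusted p 0.0447). Ogdhl, a relative of Ogdh at 0.69 to 2.74 CPM in the group means, fell with late UA (-1.30, SE 0.33, adjusted p 0.0418). Sdhaf4, an assembly factor of succinate dehydrogenase, fell in DSS (-0.56, SE 0.19, adjusted p 0.0487) and rose with late UA (0.73, SE 0.19, adjusted p 0.0445).

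**Figure D5:**
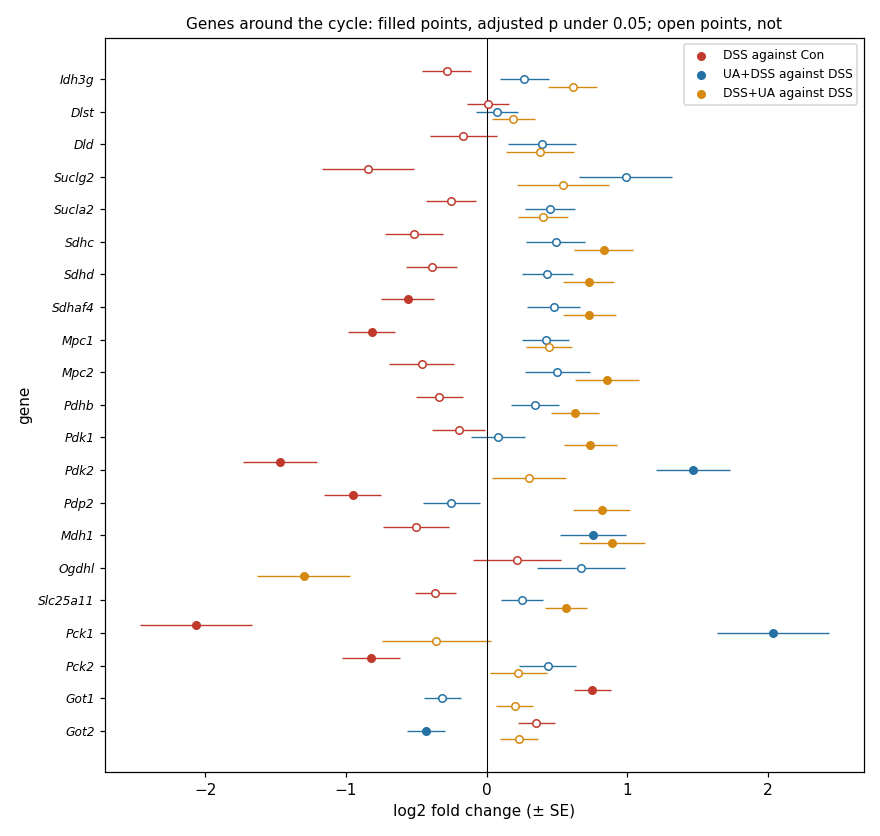
Log2 fold change with standard error from edgeR (horizontal axis) of the 7 further cycle genes and of the 14 other listed genes called in any of 3 comparisons (colours); filled points have an adjusted p under 0.05. Pck1 and Pdk2 are filled left of 0 in DSS against Con and right of 0 in UA+DSS against DSS, and Sdhc and Sdhd are filled in DSS+UA against DSS.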

How the data were processed

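Colon RNA libraries of 12 mice in 4 groups of 3 (GEO labels) were analysed. Each deposited file lists raw integer counts by Ensembl gene, with no normalization by the authors. The authors inspected reads with FastQC and mapped them to GRCm38 with HISAT2, which the study's methods also credit with the counts, and the submitters' processing notes further name Cuffdiff. For their versions, the counting settings, strand use and annotation release, the entry is: not given in the sources used here. Genes were placed with the GENCODE annotation of GRCm38. Totals ranged from 15566216 to 19498383 counts.

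Using edgeR 4.0.16 (R 4.3.3), 17658 genes passed filterByExpr. With TMM factors, all 12 libraries entered 1 quasi-likelihood fit with robust dispersions. The 6 pairs of groups were compared in it, p-values were adjusted over every tested gene (Benjamini-Hochberg), and genes with an adjusted p under 0.05 were called. The 95% intervals use the standard error and the degrees of freedom of that fit. The script was tested on simulated data. The p-values of the edgeR fit rest on the spread between the 3 tissues within each group, pooled over the 4 groups. Log2 CPM used a prior count of 2. Ratios were compared by exact permutation tests (scipy 1.17.1).

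The 9 genes, the list of 44 and the marker lists were chosen with earlier results of these data known, and 1 further listed gene is not reported here. Named genes are the 9, the 7 partner subunit genes, the listed genes called in any comparison with DSS, and the 5 most alike in profile. Alternatives were DESeq2 1.42.0, limma-voom (limma 3.58.1), library size scaling, no filter, only the 2 groups compared, a replicate block, the position score, the epithelial score and leaving out each library. Each promoter motif was searched in 1 RefSeq promoter per gene.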

Additional observations from a re-analysis of the deposited data

Results flagged for a closer look

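Levels differed between the early and late UA groups for 1 of the 9 cycle genes and for 14 of the 44 listed genes around the cycle. This was the direct test of UA+DSS against DSS+UA in the same edgeR fit, where 16.8% of all genes were called. Mdh2 differed by -0.52 on the log2 scale (UA+DSS minus DSS+UA, adjusted p 0.0444), with every DSS+UA library above every UA+DSS library. The 2 groups did not overlap for 45.3% of all tested genes. Of the genes for routes out of the cycle, Pck1 differed by 2.40 (adjusted p 0.00770), Got1 by -0.52 (0.0256), Got2 by -0.66 (0.0117), Acly by -0.97 (0.0485), Me1 by 1.97 (0.0173) and Me3 by 2.06 (0.0309). Of the control of pyruvate dehydrogenase, Pdk1 differed by -0.66 (0.0380), Pdk2 by 1.17 (0.0160), Pdp1 by -0.89 (0.0169), Pdp2 by -1.07 (0.00954) and Pdpr by 1.36 (0.0411). Ogdhl, at 2.74 CPM in UA+DSS and 0.69 in DSS+UA, differed by 1.97 (0.00770), and Sdhaf1, an assembly factor of succinate dehydrogenase, by -0.93 (0.0374). Acly, Me1, Me3, Pdp1, Pdpr and Sdhaf1 were called in no comparison with DSS and are named after their values were seen.

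Pdk4, a pyruvate dehydrogenase kinase gene chosen after its values were seen, differed by 4.27 (edgeR adjusted p 0.0128), from 25.2 ± 7.31 CPM in UA+DSS to 1.29 ± 0.52 in DSS+UA (SD, n = 3). It stood at 8.64 ± 8.08 CPM in Con, with libraries from 1.14 to 17.2, and at 7.70 ± 5.01 CPM in DSS. Counted in this comparison, 6 of the 7 kinases, phosphatases and regulators of pyruvate dehydrogenase were called, 3 higher and 3 lower in UA+DSS, against 16.8% of all genes. With the position score as a covariate 0 of the 44 listed genes and 0 of the 9 were called between the UA groups, whose scores do not overlap, and 0 of all genes were called in that fit. In this comparison, treatment and position along the colon cannot be told apart.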

How the results depend on the processing

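Counts of called genes are given in the order DSS against Con, UA+DSS against DSS, DSS+UA against DSS, UA+DSS against Con, DSS+UA against Con and UA+DSS against DSS+UA. For the 9 cycle genes they were 2, 3, 4, 0, 1 and 1, and for the 44 listed genes 7, 4, 10, 0, 7 and 14. DESeq2 gave 2, 4, 6, 0, 1 and 2 of the 9 and 9, 7, 15, 1, 13 and 15 of the 44, and limma-voom 2, 3, 4, 0, 1 and 1, and 6, 5, 8, 0, 5 and 13. Library size alone gave 2, 2, 0, 0, 1 and 0, and 6, 5, 1, 0, 6 and 11. No filter gave 2, 2, 1, 0, 1 and 0, and 6, 2, 4, 0, 4 and 10. Only the 2 groups compared gave 0, 1, 0, 0, 0 and 2, and 5, 2, 0, 0, 3 and 15. The position score as a covariate gave 2, 0, 0, 0, 1 and 0, and 9, 0, 0, 0, 3 and 0, and the epithelial score 0, 0, 0, 0, 1 and 1, and 6, 0, 0, 0, 7 and 14. Over all genes the main fit called 4688, 3300, 1331, 1, 3193 and 2961. DESeq2 called 5712, 4497, 3107, 374, 4661 and 4349, and limma-voom 4607, 3082, 1152, 0, 2937 and 2868. Library size alone gave 4240, 3059, 1143, 1, 2592 and 2335, and no filter 3690, 2328, 882, 0, 2242 and 2134. Only the 2 groups compared gave 2002, 1920, 404, 0, 1996 and 4310. The position score gave 5382, 3, 199, 0, 2176 and 0, and the epithelial score 2368, 2, 4, 1, 3850 and 3823. The cause of these changes was not tested.

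With the replicate block the counts were 2, 1, 0, 0, 1 and 0 of the 9, and 6, 2, 1, 0, 6 and 14 of the 44. That fit called 4373, 3151, 552, 1, 2920 and 2998 of all genes. Samples with the same number are not shown to be paired: correlations of their deviations from the group means were -0.10 to 0.19 in DSS against Con, 0.04 to 0.17 in UA+DSS against DSS and -0.22 to -0.02 in DSS+UA against DSS. Differences in mean log2 ratio are the same with and without the block by arithmetic, which says nothing about pairing.

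With each library left out, the 9 gave 0 to 2, 0 to 5, 0 to 3, 0 to 0, 0 to 1 and 0 to 1 calls, and the 44 gave 6 to 7, 0 to 5, 0 to 9, 0 to 0, 2 to 8 and 4 to 10. All genes gave 2966 to 4295, 227 to 3641, 25 to 1506, 0 to 4, 1075 to 3267 and 655 to 2189.

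Of 756 recomputed log2 fold changes of the 9 genes, 43 changed direction, 0 of them for a called value and 20 by leaving out a library. With library size alone UA+DSS against DSS gave -0.043 (Idh3a) and -0.016 (Mdh2). With no filter DSS+UA against Con gave 0.0047 (Ogdh) and 0.025 (Suclg1), and UA+DSS against DSS+UA -0.011 (Sdhb). Only the 2 groups compared gave -0.0013 for Sdhb in UA+DSS against DSS+UA. With the position score, Cs gave -0.089 in UA+DSS against DSS, Ogdh -0.065 in UA+DSS against Con and 0.33 in DSS+UA against Con, and in UA+DSS against DSS+UA the values were -0.012 (Idh3b), -0.40 (Ogdh), -0.64 (Sdha) and -0.15 (Sdhb). With the epithelial score, DSS against Con gave 0.12 (Cs), 0.11 (Ogdh) and 0.33 (Sdha), UA+DSS against DSS -0.36 (Cs) and -0.16 (Mdh2), DSS+UA against DSS -0.014 (Cs), -0.24 (Ogdh) and -0.20 (Sdha), and DSS+UA against Con -0.021 (Idh3b) and -0.044 (Sdhb).

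Leaving out libraries gave, in DSS against Con, -0.43 to 0.0019 (Sdha) and -0.013 to 0.13 (Mdh2), in UA+DSS against DSS, -0.12 to 0.18 (Idh3a) and -0.027 to 0.14 (Mdh2), and in UA+DSS against Con, -0.26 to 0.051 (Cs). In DSS+UA against Con it gave -0.21 to 0.12 (Ogdh), -0.20 to 0.13 (Suclg1) and -0.092 to 0.22 (Sdhb), and in UA+DSS against DSS+UA, -0.050 to 0.18 (Idh3b), -0.28 to 0.055 (Suclg1) and -0.13 to 0.19 (Sdhb). The Idh3a to Idh3b log2 ratio in DSS+UA against DSS ran from -0.082 to 0.10. Of the 11 calls of a cycle gene, each was lost in 3 to 12 of its 14 alternatives. Where a 95% interval includes 0, changes up to its bounds remain possible with 3 libraries a group.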
